A study of Mus musculus with 4 samples.

Results

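The ventral homeobox domain genes described here are *Nkx2-2*, *Nkx6-1*, *Nkx6-2*, *Dbx1*, *Dbx2*, *En1*, *Evx1*, *Evx2* and *Mnx1*. They were taken by symbol from the deposited table, in which all 9 were listed among 24421 genes. The level of each gene is given as RPKM, the reads of a gene scaled to its exon length and to the size of the library. The libraries came from mouse neural tubes at embryonic stage E11.5, from which cells carrying green fluorescent protein (GFP) were collected by fluorescence-activated sorting. GFP had been placed with a stop codon in the first exon of *Prdm13*, so that it marks cells in which this dorsal neural tube gene is transcribed and at the same time disrupts it. Embryos were Prdm13GFP/+ (the Het samples, with an intact copy) or Prdm13GFP/GFP (the Homo samples, with none), with 2 libraries for each genotype. The mice carried the allele from interbred, independently made strains on a mixed ICR and C57Bl/6 background, and no GFP-negative or wild-type cells entered the comparison. Within a genotype the RNA of several embryos had been combined, so the 2 libraries measure the spread of library preparation and sequencing and not that between embryos.

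In the ventral neural tube, Sonic hedgehog from the floor plate and notochord sets up ordered progenitor domains, each with its own combination of homeodomain proteins. NKX2-2 marks the p3 domain next to the floor plate, NKX6-1 and NKX6-2 cover a broader ventral territory, and DBX1 and DBX2 mark the p0 and p1 domains near the dorsal boundary. Many of these proteins repress the one made by the neighbouring domain. The neurons that leave these domains turn on other homeobox genes, such as *Evx1* and *Evx2* in V0 interneurons, *En1* in V1 interneurons and *Mnx1* in motor neurons. The *Prdm13* domain lies in the dorsal neural tube, so the comparison asks how far transcripts of these ventral genes were found in dorsal cells with and without an intact *Prdm13* copy.

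Among the 9 genes, *Dbx1* and *En1* were called higher in Prdm13GFP/GFP cells and none was called lower. *Dbx1* went from a mean of 0.288 RPKM to 1.503 RPKM and *En1* from 0.158 RPKM to 0.901 RPKM. *Nkx6-1* had the highest level of the 9 in every library and did not pass the test. The other 6 were under 1 RPKM in all libraries, and 5 of the 9 genes had at most 15 reads in any library.

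The proximal promoters of the 2 genes that were called are shown because they are the stretch of DNA next to the start of each transcript. Both are the 250 bases before the RefSeq start on the GRCm38.p6 build, written 5′ to 3′ on the strand of the gene. Capitals mark CANNTG, the E-box recognised by basic helix-loop-helix proteins, and TAAT or its reverse complement ATTA, the core recognised by many homeodomain proteins. The *Dbx1* window is chr7:49636836-49637085 on the minus strand and the *En1* window is chr1:120602237-120602486 on the plus strand.
Dbx1: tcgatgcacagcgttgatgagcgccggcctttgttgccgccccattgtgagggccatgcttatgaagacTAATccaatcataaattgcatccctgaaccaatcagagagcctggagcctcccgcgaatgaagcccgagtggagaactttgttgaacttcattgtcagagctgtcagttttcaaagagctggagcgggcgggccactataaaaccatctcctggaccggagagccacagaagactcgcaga
En1: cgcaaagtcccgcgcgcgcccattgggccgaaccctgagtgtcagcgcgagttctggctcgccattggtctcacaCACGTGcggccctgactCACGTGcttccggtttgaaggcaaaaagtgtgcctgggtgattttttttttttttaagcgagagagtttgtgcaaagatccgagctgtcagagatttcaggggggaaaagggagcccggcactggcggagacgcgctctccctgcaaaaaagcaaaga
The *En1* window held 2 E-boxes, both CACGTG, which began 175 and 158 bases before the start, and no TAAT. The *Dbx1* window held no E-box and 1 TAAT, which began 181 bases before the start. Of the 9 members' windows, 6 held an E-box and 6 held TAAT or ATTA, while 66.2% and 54.9% of all 32851 RefSeq promoter windows of this length did. These matches describe letters in the windows and are not measured binding sites.

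Reads recovered from the RPKM values summed to between 12266704 and 19502749 per library, as whole reads for 97.81% of the genes above 0. These totals are approximate. The library sizes that the RPKM scale implied were 0.93 to 0.943 of them. The length solved with the reads was within 5% of the annotated length for 71.9% of the genes that had one. *Prdm13* itself was at 113.9 and 126.8 RPKM in the Het libraries and at 309.5 and 324.5 RPKM in the Homo libraries. The disrupted allele is still transcribed and counted, so this level is no check on the loss of function. All 13 markers of the dorsal domains in which GFP is made had a mean of at least 1 RPKM in either genotype, with a summed level of 576.1 and 627.6 RPKM in Het and 452 and 471.3 RPKM in Homo. Of these 13, 4 were called higher and 6 lower, among them *Tlx3* (a ratio of Homo to Het of 17.6) and *Lmx1b* (11.6) upward and *Lhx1* (0.178) and *Lhx5* (0.230) downward. Among the 13, 1 reached 1 RPKM only through the Homo libraries and was called higher. Of the other 12, 3 were called higher and 6 lower. Across the 12046 genes with a mean of at least 1 RPKM in either genotype, 440 were called higher and 322 lower in Homo, where a call needed an adjusted p under 0.05 (limma on log2(RPKM + 0.1), Benjamini-Hochberg) and a change of at least 1.5-fold. A call therefore fell on 6.33% of these genes, with 3.65% called higher and 2.67% called lower. *Dbx1* and *Nkx6-1* were the 2 members in this set. Because most members lie lower, the same fit was also made on the 15058 genes with a mean of at least 0.1 RPKM over the libraries, of which 5.53% were called, 3.11% higher and 2.41% lower, and 7 members were in it.

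**Figure D1:**
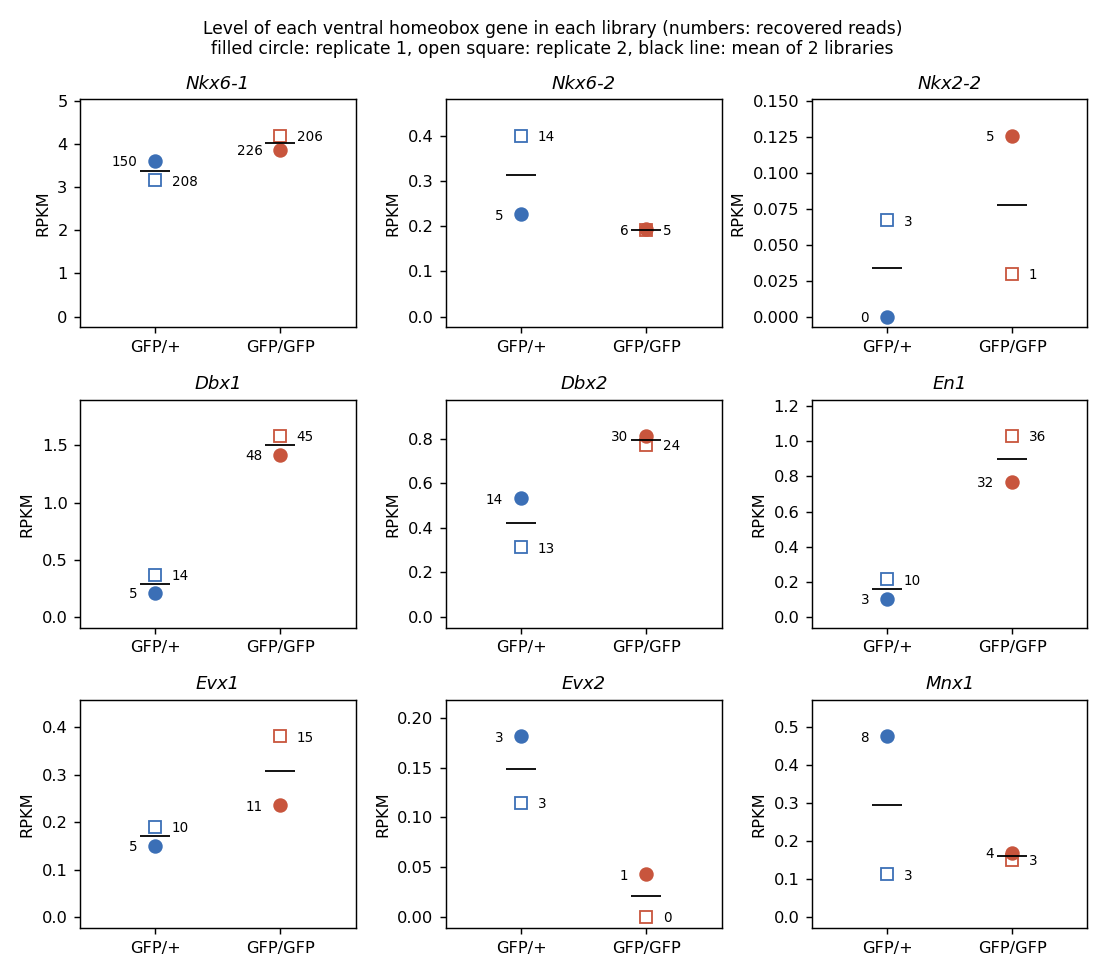
RPKM (y axis, a separate linear scale for each gene) of the 9 ventral homeobox genes in the 2 Prdm13GFP/+ libraries (blue) and the 2 Prdm13GFP/GFP libraries (red), with the recovered reads beside each point and a black line at the mean. For *Dbx1* and *En1* both Homo points stand well above both Het points, whereas *Nkx2-2* and *Mnx1* overlap between genotypes.

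*Dbx1* (chr7:49631499-49636835, minus strand) encodes a homeodomain protein of p0 progenitors that is needed for V0 interneurons. It was at 0.208 and 0.368 RPKM in the Het libraries and at 1.42 and 1.58 RPKM in the Homo libraries, from 5, 14, 48 and 45 reads. The genotypes did not overlap, and each Homo library was above the higher Het library. The mean was 0.288 ± 0.113 RPKM (SD, n = 2) in Het and 1.503 ± 0.115 RPKM (SD, n = 2) in Homo, a ratio of 5.22. On the log2(RPKM + 0.1) scale the difference was 2.08 (SE 0.34, 95% interval 1.26 to 2.90) with an adjusted p of 0.00889 by limma, and 2.29 with an adjusted p of 0.000185 by limma-voom on the recovered reads. In the set at 0.1 RPKM, whose cutoff is on the mean over all libraries, *Dbx1* was also called. The difference there was 2.08 (SE 0.27, 95% interval 1.42 to 2.73) with an adjusted p of 0.00684 by limma. *Dbx1* entered the set at 1 RPKM only through the Homo libraries, so its direction there was set by the cutoff. The fits without 1 library that follow are of that set. The call was lost without Homo replicate 1 (adjusted p = 0.0563) or Homo replicate 2 (adjusted p = 0.0683) by limma, with the difference at 2.15 and 2.00.

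*Dbx2* (chr15:95623563-95654771, minus strand) is the relative of *Dbx1* whose domain extends over p1 and p0 and into neighbouring progenitors. Its level was 0.533 and 0.312 RPKM in Het and 0.813 and 0.773 RPKM in Homo. Both Homo values were above both Het values, with a ratio of the means of 1.88. The difference was 0.80 (SE 0.28, 95% interval 0.12 to 1.49) and was not called (adjusted p = 0.118 by limma, 0.0508 by limma-voom). The recovered reads of 14, 13, 30 and 24 are known only up to a factor of 2, since the length they imply (2271 bases) is shorter than the annotated 3460 bases. The ratio of *Dbx1* to *Dbx2* in RPKM was 0.391 and 1.18 in the Het libraries and 1.75 and 2.05 in the Homo libraries, so that the order of the 2 genes was the same in both Homo libraries and differed between the Het libraries.

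*Nkx6-1* (chr5:101659184-101664711, minus strand), a repressor needed for motor neuron and V2 interneuron progenitors, was at 3.61 and 3.16 RPKM in Het and at 3.87 and 4.20 RPKM in Homo. These rest on 150, 208, 226 and 206 reads, the deepest measurement among the members. Both Homo values lay above both Het values. With means of 3.39 ± 0.317 and 4.03 ± 0.229 RPKM (SD, n = 2 each), the difference was 0.25 on the log2 scale (95% interval -0.01 to 0.51) and was not called (adjusted p = 0.161 by limma). As a fold change the interval ran from 0.993 to 1.42, and so stayed under the 1.5-fold needed for a call. The ratio of *Dbx1* to *Nkx6-1* was 0.0576 and 0.116 in Het and 0.367 and 0.378 in Homo.

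*Nkx6-2* (chr7:139579376-139582797, minus strand) overlaps *Nkx6-1* in the ventral territory and shares part of its function. Its level was 0.227 and 0.401 RPKM in Het and 0.194 and 0.192 RPKM in Homo, from 5, 14, 6 and 5 reads. Both Homo values were below both Het values, the opposite order from *Nkx6-1*, but the difference of -0.47 (95% interval -1.33 to 0.40) was not called (adjusted p = 0.43 by limma). The 3′ end of *Nkx6-2* lies over 277 bases of *Inpp5a* on the other strand, which was at 10.52 to 11.47 RPKM. Without stated strand in the counting, reads in that overlap cannot be told apart.

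*Nkx2-2* (chr2:147176485-147195434, minus strand), the p3 determinant of V3 interneurons, had 0 and 3 reads in the Het libraries and 5 and 1 in the Homo libraries. This corresponds to 0, 0.0669, 0.126 and 0.0299 RPKM, and a count of 0 in Het replicate 1 allows up to 0.106 RPKM (3 reads, counting error only). The genotypes overlapped, and the gene was under the level needed for a test.

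Of the genes of postmitotic ventral neurons, *En1* (chr1:120602487-120607991, plus strand) marks V1 inhibitory interneurons. It was at 0.102 and 0.214 RPKM in Het and at 0.771 and 1.03 RPKM in Homo, from 3, 10, 32 and 36 reads. Both Homo libraries were above both Het libraries. The means were 0.158 ± 0.0793 and 0.901 ± 0.184 RPKM (SD, n = 2 each), a ratio of 5.72. In the set at 0.1 RPKM the difference was 1.98 (SE 0.33, 95% interval 1.18 to 2.79) with an adjusted p of 0.0151 by limma, and by limma-voom it was 2.38 with an adjusted p of 0.000726. The call on RPKM did not hold without any single library (adjusted p of 0.113 without Het replicate 1, 0.0534 without Het replicate 2, 0.108 without Homo replicate 1 and 0.183 without Homo replicate 2), nor with a variance prior that did not depend on the level (0.0611), while the difference remained between 1.66 and 2.30.

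*Evx1* (chr6:52313498-52318389, plus strand), which separates ventral V0 from V1 identity, was at 0.150 and 0.190 RPKM in Het and at 0.235 and 0.381 RPKM in Homo. Both Homo values were above both Het values, from 5 and 10 reads against 11 and 15. The difference of 0.58 (95% interval -0.28 to 1.44) was not called (adjusted p = 0.339 by limma). Part of *Evx1* (1335 bases) lies over the antisense transcript *Evx1os*, which was at 0.131 to 0.178 RPKM. The ratio of *En1* to *Evx1* was 0.676 and 1.13 in the Het libraries and 3.28 and 2.70 in the Homo libraries.

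*Evx2* (chr2:74652989-74661520, minus strand), its paralogue beside the *Hoxd* cluster, was at 0.182 and 0.115 RPKM in Het and at 0.0431 and 0 RPKM in Homo, from 3, 3, 1 and 0 reads. It was too low for a test, and no fold change is given at these counts. *Hoxd13*, the nearest gene on its right at 6705 bases, had at most 1 read in a library.

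*Mnx1* (chr5:29473823-29478470, minus strand), which encodes the motor neuron factor HB9, was at 0.475 and 0.112 RPKM in Het and at 0.169 and 0.151 RPKM in Homo. The Homo values fell between the 2 Het values. The difference of -0.43 (95% interval -1.73 to 0.88; adjusted p = 0.638 by limma) turned to 0.29 without Het replicate 1. These values rest on 8, 3, 4 and 3 reads, again known only up to a factor of 2.

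**Figure D2:**
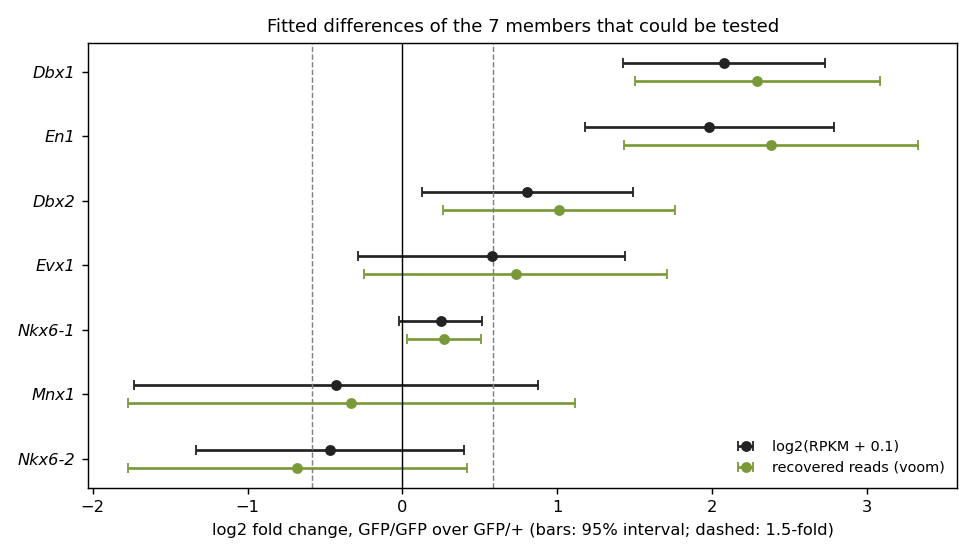
Difference between genotypes on the log2 scale (x axis, Prdm13GFP/GFP over Prdm13GFP/+) for the 7 members that could be tested, by limma on log2(RPKM + 0.1) (black) and by limma-voom on recovered reads (green), with 95% intervals and dashed lines at 1.5-fold. The intervals of *Dbx1* and *En1* lie to the right of the 1.5-fold line in both fits, and those of *Nkx6-2*, *Mnx1* and *Evx1* span 0.

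In the set at 0.1 RPKM, 2 of the 7 members were called higher and 0 lower, against the 3.11% and 2.41% of all genes given above. By limma-voom it was also 2 higher and 0 lower, where 6.65% of 15217 genes were called, 3.61% higher and 3.04% lower. The median difference of the 7 was 0.58, and that of all 15058 genes was 0.00875. In 5 of the 7 both Homo libraries were above both Het libraries, which held for 29.8% of all genes, and in 1 both were below, which held for 28.7%. With 2 libraries against 2, an exact permutation test cannot go below p = 0.333 (two-sided), so none is given for single genes.

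The summed level of the 9 members was 5.49 and 4.94 RPKM in the Het libraries and 7.64 and 8.34 RPKM in the Homo libraries. *Nkx6-1* made up 64.96% of that sum in Het and 50.5% in Homo. *Dbx1* went from 5.52% to 18.8% of it and *En1* from 3.02% to 11.3%. Without *Nkx6-1*, the remaining 8 genes summed to 1.88 and 1.78 RPKM in Het and to 3.77 and 4.14 RPKM in Homo. These sums describe RNA in sorted cells, in which fewer cells of a type and less RNA per cell cannot be told apart.

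**Figure D3:**
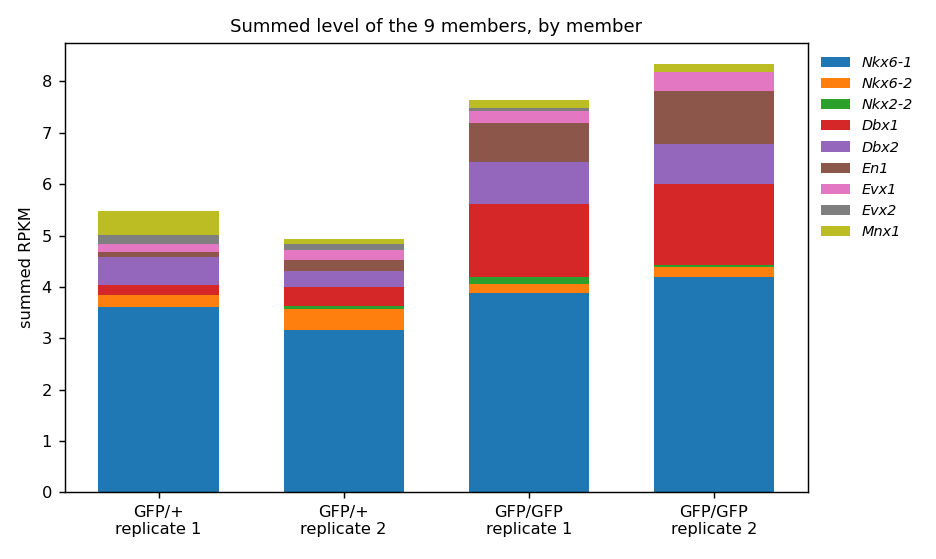
Summed RPKM of the 9 members (y axis, from 0) in each of the 4 libraries, stacked by member. *Nkx6-1* is the largest block in every library, and the *Dbx1* and *En1* blocks are larger in both Prdm13GFP/GFP libraries.

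Genes that work beside the members in the same domains were followed through lists for each domain, 42 genes in all. Of the 21 that reached 1 RPKM, 11 were called higher, 4 lower and 6 were not called, where 3.65% and 2.67% of all tested genes were called higher and lower. *Olig1*, *Olig2*, *Prdm12* and *Shox2* reached that level only through the Homo libraries. Their means therefore had to be higher in Homo, which fixed the direction but not the call. Of the other 17 tested partners, 7 were called higher and 4 lower. Several of these 17 were already abundant in Het, with means of 79.2 (*Uncx*), 39.9 (*Irx3*), 26.7 (*Irx5*), 24.7 (*Sox21*) and 11.47 RPKM (*Foxd3*). *Bhlhe22* was at 3.90 RPKM there, and others were lower, among them *Isl1* (1.69), *Phox2a* (1.23) and *Aldh1a2* (1.10). The highest Het mean of a member was 3.39 RPKM (*Nkx6-1*). Whether calls on partners already present in Het follow a ventral domain was not tested. In the ventral progenitor list 5 of 7 tested genes were called higher and 0 lower, and 3 of the 5 passed only through Homo. Of the 4 that passed in both genotypes, 2 were called higher and 0 lower. *Olig2*, which is required for motor neuron progenitors, was at 0 and 0.0224 RPKM (0 and 1 reads) in Het and at 17.0 and 21.3 RPKM in Homo, and its neighbour *Olig1* at 0 and 0.0754 RPKM against 10.7 and 11.1 RPKM. *Prdm12*, a p1 gene required for V1 interneurons, rose from 0.595 and 0.596 RPKM to 13.4 and 15.4 RPKM. Smaller increases were called for *Bhlhe22* (1.47 on the log2 scale) and *Irx3* (0.60). By limma-voom *Irx3* differed by 0.584, just under 1.5-fold, and was not called. That fit called 4 of 10 tested genes of this list higher and 0 lower. *Irx5*, the most abundant of the uncalled genes in this list, differed by 0.47, below 1.5-fold.

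The partners of *Evx1* and *Evx2* went the other way. All 3 tested genes of the V0 and dI6 list were called lower, *Pax2* by 2.62, *Dmrt3* by 1.12 and *Lbx1* by 0.61 on the log2 scale. *Pax2* and *Lbx1* also belong to dorsal interneurons of the sorted domain. Among the partners of *En1* in V1 neurons, *Sp8* was called higher (from 1.89 and 1.84 to 4.09 and 4.11 RPKM), *Foxd3* lower (from 10.1 and 12.8 to 4.20 and 4.25 RPKM) and *Foxp2* was not called. In the V2 list *Shox2* was called higher (3.43) and *Sox21* was not.

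Of the 5 tested partners of *Mnx1* in motor neurons, 4 were called higher, 0 lower and 1 was not called. Over all genes of that set, 3.65% were called higher and 2.67% lower. By limma-voom 4 of 11 were called higher and 1 lower. *Isl1* rose by 2.11, *Phox2a* by 3.66 and *Aldh1a2*, an enzyme of retinoic acid synthesis, by 1.25 on the log2 scale. *Phox2a* is a gene of hindbrain visceral motor and noradrenergic neurons, and *Isl1* is also made in dorsal interneurons. The most abundant uncalled gene was *Foxp1* (-0.38). The motor neuron gene *Isl2* was at 0.280 and 0.383 RPKM in Het against 0.366 and 0.356 RPKM in Homo, and was not called. *Chat*, which encodes the acetylcholine-synthesising enzyme, was at 0.123 and 0.175 RPKM against 0.0219 and 0.0520 RPKM. It rests on 4 and 9 reads in Het and 1 and 2 in Homo. *Chat* was under the level of the set at 0.1 RPKM and was not called by limma-voom (adjusted p = 0.0659). In the V3 list *Sim1* was called higher in the set at 0.1 RPKM (1.15, adjusted p = 0.0294 by limma), while *Nkx2-2* itself was near 0, and *Uncx* was not called at 70.5 to 85.7 RPKM.

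**Figure D4:**
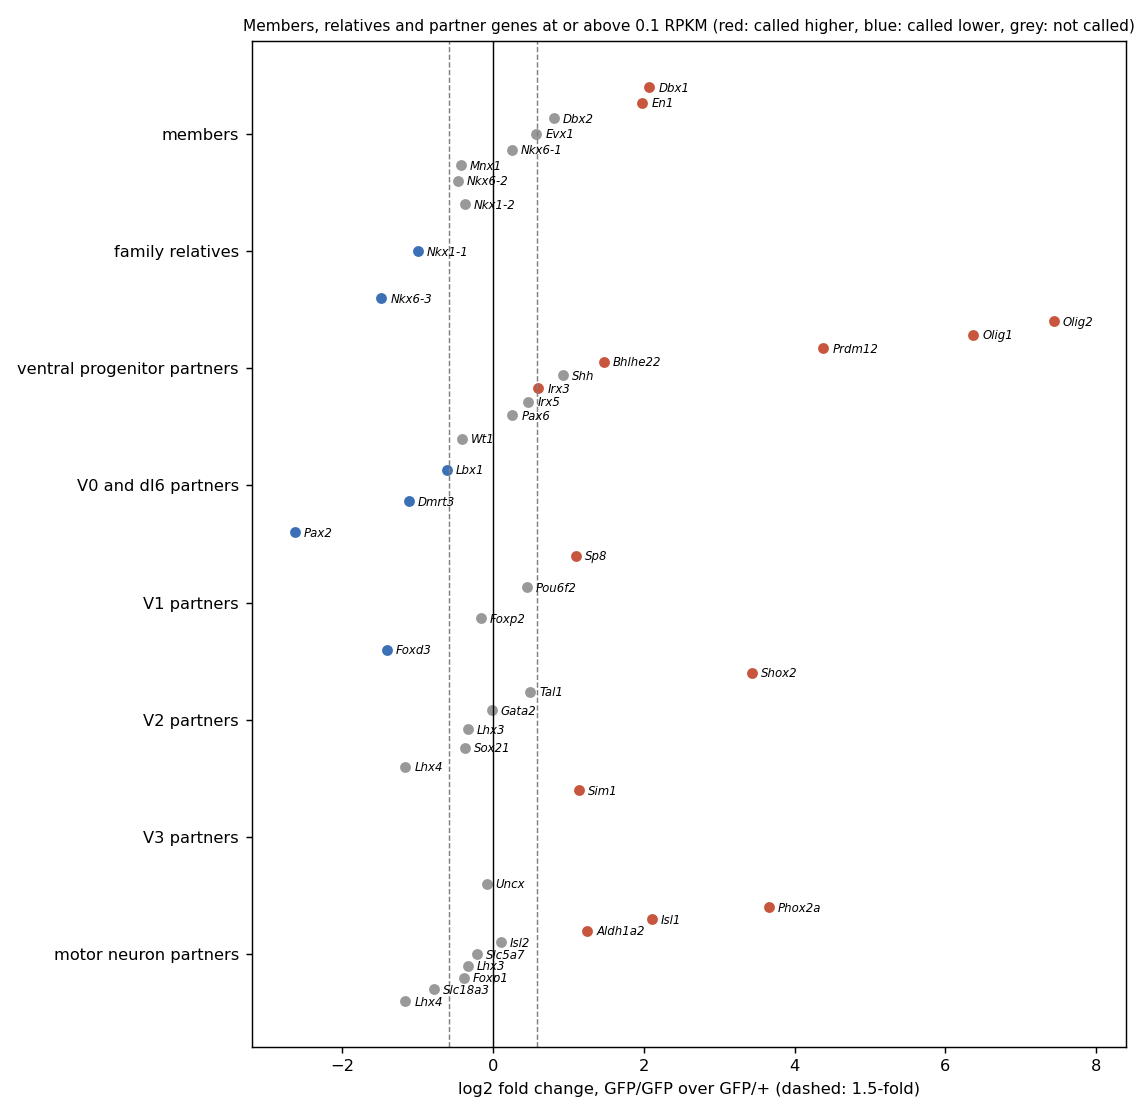
Difference between genotypes on the log2 scale (x axis) by limma on log2(RPKM + 0.1) for the members, their relatives and the reported domain partners with a mean of at least 0.1 RPKM, 1 row for each list, with genes called higher in red, lower in blue and uncalled in grey. *Dbx1* and *En1* lie between uncalled members near 0 and partners such as *Olig2* and *Prdm12* far to the right, and the called genes of the V0 and dI6 list lie to the left.

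Relatives of the members in the NKX and EN families gave no call upward. Of 12 such genes 3 reached 0.1 RPKM, and 2 were called lower. Over all 15058 genes of that set, 3.11% were called higher and 2.41% lower. *Nkx1-1* went from 3.66 and 4.46 RPKM to 1.72 and 2.27 RPKM (adjusted p = 0.0165 by limma in that set). *Nkx6-3*, the third NKX6 gene, went from 0.580 and 0.879 RPKM to 0.138 and 0.262 RPKM (adjusted p = 0.0418 by limma in that set). *En2*, the paralogue of *En1* in the midbrain and hindbrain, was at 0.0617 to 0.122 RPKM in the 4 libraries, with the genotypes overlapping.

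Next to *Dbx1*, *Nav2* (21409 bases away) was called lower, from 16.6 and 17.4 RPKM to 9.30 and 9.41 RPKM, the opposite direction to *Dbx1*. Next to *Dbx2*, *Nell2* (94767 bases away) was called higher, from 58.0 and 55.6 RPKM to 94.1 and 96.6 RPKM. The nearest genes on both sides of *En1*, *Marco* and *Celrr*, had at most 1 read in a library. *Nom1* next to *Mnx1* and *Lnp* next to *Evx2* were not called.

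The gene-centred profile over the 4 libraries most like that of *Dbx1*, by Euclidean distance on the log2(RPKM + 0.1) scale among 15057 genes, was that of *En1* (0.191), followed by *Mfng* (0.212), *Chst8* (0.253), *Hoxd10* (0.284) and *Tmem184a* (0.289). For *En1* the order was *Hoxd10* (0.189), *Dbx1* (0.191), *Mir3091* (0.240), *Neurog1* (0.301) and *Mfng* (0.320). *Mfng* encodes a Fringe enzyme that modifies Notch receptors, and *Neurog1* a proneural basic helix-loop-helix factor. With 4 libraries in 2 genotypes, these distances mainly describe the size of the difference between genotypes.

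Markers of cells outside the sorted domain gave the following values beside the *Dbx1* and *En1* differences. Erythroid markers (0 of 5 tested called) summed to 47.3 and 48.2 RPKM in Het and 50.0 and 48.8 RPKM in Homo, and endothelial markers (0 of 6 called) to 2.38 to 2.74 RPKM over the libraries. Mesenchymal markers (0 of 6 called by limma; by limma-voom *Pdgfra* was called lower, of 7) summed to 4.67 and 5.18 RPKM in Het and 3.64 and 3.56 RPKM in Homo, and those of neural crest and glia (*Foxd3*, also in the V1 list, called lower of 4 tested) to 98.5 and 105.5 RPKM against 95.1 and 91.4 RPKM, mostly *Tfap2b*. The dorsal root ganglion list summed from 3.72 and 3.598 RPKM in Het to 8.41 and 9.23 RPKM in Homo, with 1 of 5 tested genes called higher. The floor plate list went from 21.7 and 22.2 RPKM to 15.9 and 16.3 RPKM, mostly *Ntn1*, with 0 of 3 called by limma and *Spon1* called higher, of 5, by limma-voom. Its defining gene *Shh* was at 0.130 and 0.143 RPKM in Het and 0.277 and 0.439 RPKM in Homo, and *Foxa2* at 0 to 0.123 RPKM. Somite and notochord markers (0 of 2 called) summed to 0.274 to 0.575 RPKM, with *Noto* at 0 in every library. The part of other cells in the differences was not tested.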

How the data were processed

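Poly(A) RNA of GFP-positive cells was sequenced with the Illumina Tru-Seq kit. Per the labels, the authors used CASAVA, TopHat2 2.1.0 on mm10 and edgeR 3.6.8, and the methods of the study also name featureCounts for counting reads on RefSeq exons. The deposited table holds RPKM after TMM scaling by the authors, which removes library size and gene length but not sampling error of low genes. Groups were taken from the sample titles. Whole reads were recovered from the RPKM steps (within 0.02 reads) for 18780 of 19200 genes above 0. Recovered reads summed to 12266704 to 19502749 per library, which are approximate totals, and 3 reads of a typical member are near 0.1 RPKM. The floor of 3 reads covers counting error only, and the 95% intervals come from the spread between libraries in each fit.

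The fit took genes whose mean reached 1 RPKM in Het or in Homo, with limma 3.58.1 in R 4.3.3 (lmFit and eBayes with a trend). It was made on log2(RPKM + 0.1), which understates the change of low genes. Members below that level were taken from a fit of genes with a mean of at least 0.1, which is also given for *Dbx1*. limma-voom on genes with at least 10 recovered reads was an alternative. p-values were adjusted by Benjamini-Hochberg over all genes of a fit. The fits were tested on simulated data. The replicates are technical, so p-values measure only that spread.

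The members and lists were chosen with earlier results of these data known. Genes named were the members, *Prdm13*, called partners, the most abundant uncalled gene of each partner list and the most abundant marker, nearest neighbours with reads, and the 5 profiles most like *Dbx1* and *En1*. Others (*Isl2*, *Chat*, *Nkx1-1*, *Nkx6-3*, *En2*, *Shh*, *Foxa2*, *Noto*, *Foxd3*, *Tlx3*, *Lmx1b*, *Lhx1*, *Lhx5*, *Pdgfra*, *Spon1*) were named after their values were seen. Some genes of the lists are counted but not reported here by name. Promoter sequences and coordinates are from RefSeq on GRCm38.p6, with all 9 members matched.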

Additional observations from a re-analysis of the deposited data

How the results depend on the processing

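Leaving out each library in turn gave 258 to 437 genes called higher and 212 to 266 called lower (258 and 212 without Homo replicate 2). Without 1 library the lone sample of a genotype is assumed to vary like the other genotype. The difference of *Dbx1* then ranged from 1.77 to 2.38 and lost its call without either Homo library. That of *En1* ranged from 1.66 to 2.30 and lost its call without each library, and with a variance prior that ignored the level it was 1.98 with an adjusted p of 0.0611 by limma. That of *Mnx1* ranged from -1.15 to 0.29 and was 0.29, reversed, without Het replicate 1. The cause was not tested. No alternative called *Dbx2*, *Nkx6-1*, *Nkx6-2*, *Evx1* or *Mnx1*, and their directions otherwise held. *Dbx1* has no value where a mean of 1 RPKM over all libraries was required, since its mean was 0.895 RPKM.

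With the replicate number as a block, 459 genes were called higher and 342 lower, with 751 of the 762 calls shared, and no call of a member changed. Libraries of the same number deviated from their genotype means with a correlation of 0.0475 over all genes of the set at 1 RPKM. That value cannot show a shared step that touches few genes, and such a step was not tested. With a pseudocount of 1 the difference of *Dbx1* was 0.96 and that of *En1* 0.71, both still called. At 0 to 15 reads a library, small differences of *Nkx2-2*, *Evx1*, *Evx2*, *Nkx6-2* and *Mnx1* were not detectable at this depth.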
